A study of Homo sapiens with 24 samples.

Results

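MPEG1, LYZ, MS4A7 and SRGN, grouped here as myeloid-type genes, were followed in Karpas422 cells. This human diffuse large B cell lymphoma line carries the EZH2 mutation Y641N. The 4 genes are among the 19775 measured. They were selected on the difference between EZH2 inhibitor and DMSO at day 6 in these same arrays, and all 4 were higher with the inhibitor there. Their day 6 values are therefore given as a description, and tests are given for days 1, 2 and 3. Of the probe sets with a single gene symbol, 2 report MPEG1, 2 LYZ, 3 MS4A7 and 3 SRGN, 10 in all, and the brightest over the 24 arrays is the value of the gene. The cells received the inhibitor, called EZH2i here, at 5 uM, or the solvent DMSO, for 1, 2, 3 or 6 days. Each of the 8 groups had 3 arrays of total RNA from biological triplicates, on the Affymetrix U133 Plus 2 platform. All 8 groups are the same line with the same EZH2 genotype, so whether the differences hold in other lines or genotypes cannot be told here. Every difference is EZH2i minus DMSO on the same day unless another is named.

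EZH2 is the enzyme of Polycomb repressive complex 2 that methylates lysine 27 of histone H3, a mark of silenced genes, and mutations such as Y641N shift it towards the trimethylated product. MPEG1 encodes perforin-2, a pore-forming protein of phagosomes and endosomes that acts on engulfed bacteria. LYZ encodes lysozyme, which cleaves the bacterial cell wall and is stored and secreted by monocytes, macrophages and granulocytes. SRGN encodes serglycin, the proteoglycan core that packs proteases and other cargo in the granules of blood cells. MS4A7 encodes a membrane protein of the family that includes the B cell antigen CD20 (MS4A1), and is known as a marker of monocytes and macrophages. SRGN is also expressed in mast cells, platelets and lymphocytes, and MPEG1 in some B cells.

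The arrays were alike in overall level, with medians of 4.96 to 5.03 on the log2 scale and correlations of 0.993 to 0.997 within groups over all probe sets. The EZH2 transcript itself averaged 9.57 in EZH2i arrays and 10.21 in DMSO arrays at day 6, a difference of -0.64 ± 0.12 (SE, n = 3 each, limma adjusted p = 8.9e-05). It was not called on days 1, 2 and 3 (adjusted p = 1.0, 0.76 and 0.091). The inhibitor acts on the protein, so this transcript is no check of its action. The B cell genes CD79A and MS4A1 were bright on every array, from 8.82 to 9.32 and from 12.01 to 13.29. Of the 7 defining myeloid genes, 6 stayed below 5.80, the median of all genes in DMSO arrays, on every array. CEBPB, which is expressed in many cell types, did not, with 8.58 to 11.13. SPI1 read 5.22 to 5.73, CEBPA 4.79 to 5.41, CD14 3.98 to 4.75, CSF1R 4.78 to 5.30, ITGAM 4.43 to 5.47 and MPO 3.33 to 4.29. As a scale for dimness, the means of 82 olfactory receptor genes in DMSO arrays had a median of 3.96 and a 95th percentile of 5.58. Of the 6 genes, SPI1 alone read above that percentile on some arrays. In bulk RNA, a few cells with much of a transcript and many cells with little of it cannot be told apart.

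MPEG1 had the largest difference of the 4 genes at day 6 and stayed low in DMSO arrays throughout. At day 1 its log2 values were 5.57, 6.01 and 5.54 in EZH2i arrays, against 5.27, 5.30 and 4.78 in DMSO arrays. At day 2 they were 6.31, 6.62 and 6.99 in EZH2i arrays, against 4.86, 5.01 and 4.79 in DMSO arrays. At day 3 they were 7.19, 7.85 and 8.23 in EZH2i arrays, against 5.08, 4.89 and 4.79 in DMSO arrays. On this brightest probe set all EZH2i arrays lay above all DMSO arrays of the same day, narrowly at day 1 and widely after it. How many of all genes separate in this way was not counted, so this and the separations given below are descriptions. At day 6 the EZH2i arrays read 11.22, 11.09 and 11.05, against 5.22, 4.46 and 4.68 in DMSO arrays. The 3 EZH2i arrays of day 6 were closer to each other than the 3 DMSO arrays were, with SDs of 0.09 and 0.39.

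The MPEG1 difference was 0.59 ± 0.22 at day 1 (SE, n = 3 each), which was not called (limma, adjusted p = 0.52). MPEG1 rose at day 2 by 1.76 ± 0.22, or 3.38-fold (limma, adjusted p = 2.5e-05), and at day 3 by 2.84 ± 0.22, or 7.16-fold (adjusted p = 1.5e-08). The day 6 difference on which it was chosen was 6.34 ± 0.22, or 80.8-fold, the 2nd highest of the 19775 genes. A gene is called when its Benjamini-Hochberg adjusted p, taken over the 19775 genes, is under 0.05. Between day 1 and day 3 the difference grew by 2.25 ± 0.31 (interaction term in limma, adjusted p = 0.00056).

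**Figure D1:**
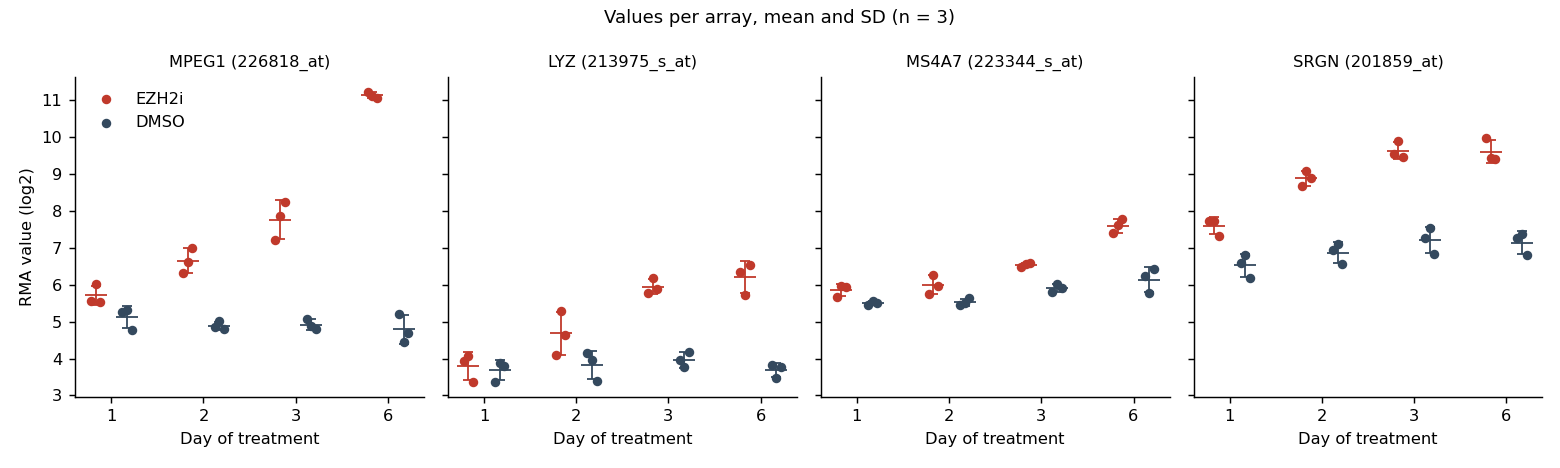
Log2 RMA values (vertical axis) of MPEG1, LYZ, MS4A7 and SRGN on every array, by day of treatment (horizontal axis), with EZH2i arrays in red left of DMSO arrays in dark blue. Points are arrays and bars are means with SD (n = 3), and the red points of MPEG1 climb to 11.12 on average at day 6 while its DMSO arrays average 4.79.

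LYZ was low in DMSO arrays on all days, and its first call came at day 3. At day 1 LYZ read 3.93, 4.08 and 3.36 in EZH2i arrays, against 3.37, 3.87 and 3.79 in DMSO arrays. At day 2 it read 4.11, 5.28 and 4.65 in EZH2i arrays, against 4.14, 3.96 and 3.40 in DMSO arrays. The groups overlapped on both days, at day 2 through the lowest EZH2i array and the highest DMSO array. At day 3 LYZ read 5.78, 6.18 and 5.87 in EZH2i arrays, against 3.96, 3.76 and 4.19 in DMSO arrays. At day 6 it read 6.34, 5.73 and 6.54 in EZH2i arrays, against 3.83, 3.47 and 3.77 in DMSO arrays. On these later days every EZH2i array lay above every DMSO array, by more than the whole range within either group.

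The LYZ difference was 0.11 ± 0.26 at day 1 and 0.85 ± 0.26 at day 2 (SE, n = 3 each), neither of them called (limma, adjusted p = 1.0 and 0.066). Without replicate 1 of the day 2 EZH2i arrays the day 2 difference was 1.13 and was called (adjusted p = 0.013). LYZ rose at day 3 by 1.97 ± 0.26, or 3.93-fold (limma, adjusted p = 1.0e-05), and its day 6 difference was 2.52 ± 0.26, or 5.72-fold. The difference grew between day 1 and day 3 by 1.86 ± 0.36 (interaction term in limma, adjusted p = 0.0072).

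SRGN was the one gene of the 4 called at day 1. Its DMSO group means were 6.52 to 7.21, above the 5.80 that was the median of all genes in DMSO arrays. At day 1 SRGN read 7.73, 7.73 and 7.32 in EZH2i arrays, against 6.59, 6.79 and 6.18 in DMSO arrays. At day 2 it read 8.66, 9.08 and 8.89 in EZH2i arrays, against 6.93, 7.11 and 6.57 in DMSO arrays. At day 3 it read 9.54, 9.88 and 9.45 in EZH2i arrays, against 7.25, 7.53 and 6.84 in DMSO arrays. On this brightest probe set the groups did not overlap on any day, and replicate 3 was the lowest DMSO array each time. At day 6 SRGN read 9.96, 9.43 and 9.39 in EZH2i arrays, against 7.26, 7.37 and 6.79 in DMSO arrays.

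SRGN rose at day 1 by 1.08 ± 0.21, or 2.11-fold (SE, n = 3 each, limma adjusted p = 0.014), ranking 8 among the 19775 genes on that day. This call was lost when 1 array was left out, with an adjusted p of 0.086 without DMSO replicate 3, 0.080 without EZH2i replicate 1 and 0.11 without EZH2i replicate 2. The rise was 2.01 ± 0.21 at day 2 and 2.42 ± 0.21 at day 3, or 4.02-fold and 5.34-fold (limma, adjusted p = 2.4e-06 and 4.3e-08). At day 6 the difference was 2.46 ± 0.21, or 5.49-fold, so that on this probe set the day 3 difference was already 98.4% of it. On the second SRGN probe set the differences were 2.19 at day 3 and 2.58 at day 6. The difference grew between day 1 and day 3 by 1.34 ± 0.29 (interaction term in limma, adjusted p = 0.016). That call too depended on single arrays, with an adjusted p of 0.051 without the day 1 DMSO replicate 2 and 0.057 without the day 3 EZH2i replicate 2.

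MS4A7 had the smallest difference of the 4 genes at days 2, 3 and 6 on the brightest probe sets. Averaged over all probe sets, its day 6 difference was 1.96, against 1.75 for LYZ and 1.71 for SRGN, so that the order at day 6 depends on the probe set. Its promoter is the only one of the 4 given in the RefSeq table used here, and it is shown as the stretch of 250 bases before the gene's start, on the plus strand of chromosome 11 at chr11:60378282-60378531 (GRCh38.p14). Capitals mark the letters GAGGAA, the core recognised by PU.1, the product of SPI1.
MS4A7 promoter: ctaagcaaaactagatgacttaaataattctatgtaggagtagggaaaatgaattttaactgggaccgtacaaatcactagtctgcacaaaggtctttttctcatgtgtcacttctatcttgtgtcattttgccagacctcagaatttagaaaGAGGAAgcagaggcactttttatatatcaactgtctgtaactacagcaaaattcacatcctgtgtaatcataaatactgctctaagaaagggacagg
The match begins 97 bases before the start, and on either strand 23.6% of 35116 RefSeq promoters of this length hold such letters. The other motifs searched on both strands were the interferon response core, TTGCNNAA (C/EBP core) and TGANTCA (AP-1). None of these is in the window, and 3.02%, 9.05% and 6.57% of all promoters hold them. The window has 1 CG pair, where the median promoter has 11 and 14.7% have as few. These matches describe letters only.

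At day 1 MS4A7 read 5.66, 5.96 and 5.93 in EZH2i arrays, against 5.46, 5.57 and 5.50 in DMSO arrays. At day 2 it read 5.75, 6.26 and 5.96 in EZH2i arrays, against 5.45, 5.50 and 5.63 in DMSO arrays. At day 3 it read 6.47, 6.56 and 6.57 in EZH2i arrays, against 5.80, 6.02 and 5.91 in DMSO arrays. On this brightest probe set the groups were apart on each day, by gaps smaller than those of MPEG1 or SRGN. The DMSO arrays too were higher on the later days. At day 6 MS4A7 read 7.40, 7.60 and 7.76 in EZH2i arrays, against 6.23, 5.77 and 6.41 in DMSO arrays.

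The MS4A7 difference was 0.34 ± 0.14 at day 1 and 0.47 ± 0.14 at day 2 (SE, n = 3 each), not called (limma, adjusted p = 0.65 and 0.057). The day 2 difference was called in the fit with a replicate block (adjusted p = 0.023), and without EZH2i replicate 1, when it was 0.59 (adjusted p = 0.024). MS4A7 rose at day 3 by 0.62 ± 0.14, or 1.54-fold (limma, adjusted p = 0.0026), and its day 6 difference was 1.45 ± 0.14, or 2.74-fold. The growth of its difference between day 1 and day 3, 0.29 ± 0.19, was not called (interaction term in limma, adjusted p = 0.58), with a 95% interval of -0.12 to 0.69.

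The differences at days 1, 2 and 3 can be set beside the day 6 difference, on which the genes were selected. On its brightest probe set SRGN had 43.9%, 81.7% and 98.4% of its day 6 difference at days 1, 2 and 3. LYZ had 4.40%, 33.6% and 78.4%, MPEG1 9.28%, 27.7% and 44.8%, and MS4A7 23.2%, 32.2% and 42.9%. The second LYZ probe set differed by 0.58 at day 3 and 0.99 at day 6. Whether the courses of the genes differ from each other was not tested. After removal of the group means, the values of gene pairs over the 24 arrays correlated between -0.23 and 0.35.

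Of the 4 genes, 1 was called higher at day 1 (SRGN), 2 at day 2 (SRGN and MPEG1) and 4 at day 3. Among all 19775 genes, 0.475% were called higher at day 1, 3.57% at day 2 and 8.64% at day 3. In the fit with a replicate block, 243 and 1126 genes were higher at days 1 and 2, against 94 and 706 without it. At day 6, where the choice was made, 18.5% of all genes were higher and nothing is read from the 4. The change of the difference from day 1 to day 3 was called for 3 of the 4 genes and for 1.6% of all genes upwards. No gene among the 19775 was called by limma for an upward change from day 1 to day 2 or from day 2 to day 3 (0% each), although 425 and 693 had an unadjusted p under 0.05. For the 4 genes those changes were 0.13 to 1.17 from day 1 to day 2, and 0.16 to 1.13 from day 2 to day 3.

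Within each treatment, day 3 was also compared with day 1. Within the EZH2i groups, day 3 exceeded day 1 by 2.05 ± 0.22 for MPEG1, 2.15 ± 0.26 for LYZ, 2.03 ± 0.21 for SRGN and 0.69 ± 0.14 for MS4A7. All 4 were called (limma, adjusted p = 2.0e-06, 6.1e-06, 9.8e-07 and 0.0012), as were 7.52% of all genes upwards. Within the DMSO groups the same comparison gave -0.20 ± 0.22 for MPEG1, 0.29 ± 0.26 for LYZ, 0.69 ± 0.21 for SRGN and 0.40 ± 0.14 for MS4A7. None of the 4 was called there (limma, adjusted p = 0.86, 0.82, 0.20 and 0.29), where 0.379% of all genes were called upwards. For SRGN and MS4A7 the unadjusted p was 0.0031 and 0.0083, and SRGN was called here too in the fit with a replicate block (adjusted p = 0.015).

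The other probe sets of a gene cover other parts of its transcripts, and their levels cannot be set against each other. The second MPEG1 probe set, 226841_at, was called at day 2 (1.18 ± 0.25, limma adjusted p = 0.0093) and day 3 (2.27 ± 0.25), and gave 5.46 ± 0.25 at day 6. The second SRGN probe set, 201858_s_at, gave 0.89, 2.17 and 2.19 at days 1, 2 and 3, each of them called, and 2.58 at day 6. Both follow the main probe sets of these genes, except that on 226841_at the groups overlapped at day 1. The remaining SRGN probe set, 1554676_at, averaged 3.01 over all arrays and was not called, with a day 6 difference of 0.11 ± 0.17.

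The LYZ and MS4A7 probe sets disagreed more. The second LYZ probe set, 1555745_a_at, differed by 0.58 ± 0.18 at day 3 (limma, adjusted p = 0.037), with groups that overlapped, and by 0.99 ± 0.18 at day 6, against 2.52 on the main one. Affymetrix gives the suffix _s to probe sets whose probes match several transcripts, and the main LYZ and MS4A7 probe sets, 213975_s_at and 223344_s_at, carry it, as do 201858_s_at of SRGN and 224358_s_at of MS4A7. What part other transcripts have in their values was not tested. The MS4A7 probe set 223343_at differed by 0.89 ± 0.20 at day 2 and 1.06 ± 0.20 at day 3 (limma, adjusted p = 0.018 and 0.0012), and by 2.98 ± 0.20 at day 6. The dim MS4A7 probe set 224358_s_at was not called through day 3, with 0.30 ± 0.16 there, and differed by 1.44 ± 0.16 at day 6. Its groups overlapped at days 1, 2 and 3, and those of 223343_at at day 1. In the fit of all 54613 probe sets, 0.189%, 1.94% and 5.87% were called higher at days 1, 2 and 3.

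**Figure D2:**
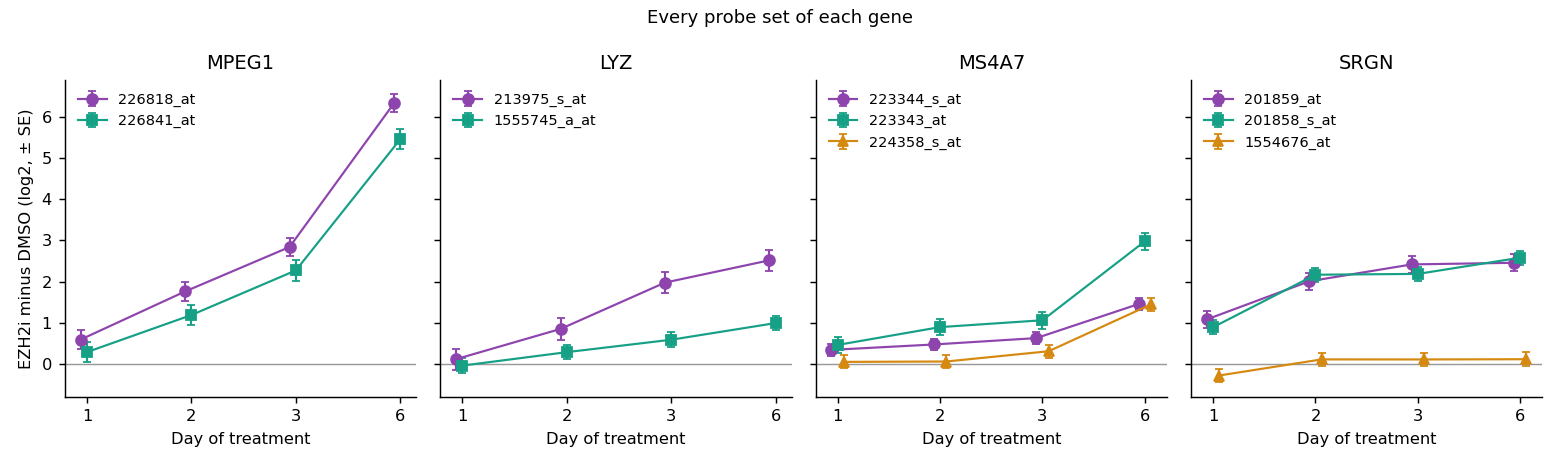
Difference between EZH2i and DMSO arrays (log2, with SE, vertical axis) by day of treatment (horizontal axis) for each of the 10 probe sets of MPEG1, LYZ, MS4A7 and SRGN. The MPEG1 probe sets reach 6.34 and 5.46 at day 6, the LYZ probe sets 2.52 and 0.99, and one dim SRGN probe set stays near 0.

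Few genes that mark the myeloid lineage were called higher beside the 4. Of 11 measured myeloid transcription factors, 1 was called higher and 3 lower at day 3, and 1 higher and 4 lower at day 6. The share of all genes called higher was 8.64% at day 3 and 18.5% at day 6, and the share called lower 7.65% and 26.9%. IRF8, a factor of monocytes, dendritic cells and B cells, rose by 0.36 ± 0.07 at day 3 and 0.69 ± 0.07 at day 6 (limma, adjusted p = 0.00083 and 4.7e-08). CEBPD fell at day 6 by 1.15 ± 0.12, and GFI1, a transcriptional repressor needed for granulocyte and lymphoid development, by 0.80 ± 0.15. CEBPB averaged 8.82 in EZH2i arrays and 10.24 in DMSO arrays at day 3, a difference of -1.42 ± 0.33 with an SD of 1.15 among the DMSO arrays. The call of CEBPB (limma, adjusted p = 0.0036) was lost when the fit held only the day 3 arrays (0.079). PU.1's gene SPI1 differed by -0.29 ± 0.11 at day 6 (adjusted p = 0.043), a call lost with 4 of the 6 arrays left out singly, when the adjusted p reached 0.20. In the fit with a replicate block, CEBPA was also called higher (0.32, adjusted p = 0.046) and GFI1 also lower (-0.41, adjusted p = 0.0054) at day 3.

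Of 35 measured surface and effector genes of monocytes and macrophages, 1 was called higher and 2 lower at day 3, and 2 higher and 10 lower at day 6. The lower count at day 6 is near the 26.9% of all genes called lower, and the higher count is below the 18.5% called higher. FPR1, a receptor for formylated bacterial peptides, rose by 0.66 ± 0.15 at day 3 (limma, adjusted p = 0.0027), and at day 6 to an average of 7.58 in EZH2i arrays, against 6.08 in DMSO arrays (adjusted p = 2.2e-08). CYBB, the catalytic subunit of the phagocyte NADPH oxidase that B cells also make, rose by 1.68 ± 0.27 at day 6 (adjusted p = 2.5e-05). The 10 lower genes differed by 0.23 to 0.43, CD14 among them with -0.42 ± 0.14 (adjusted p = 0.014, but 0.070 without DMSO replicate 3 and 0.071 without EZH2i replicate 2). With 1 array of day 6 left out, 4 to 9 genes of the list were called lower, 4 without DMSO replicate 2 or EZH2i replicate 3 and 5 without DMSO replicate 1. The count was 6 without DMSO replicate 3 or EZH2i replicate 1. The mean level of this list was slightly lower with the inhibitor, with array means of 4.42 to 4.46 in EZH2i arrays and 4.49 to 4.51 in DMSO arrays at day 6.

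Of 17 measured neutrophil and eosinophil granule genes, none was called at day 3, where limma gave no adjusted p under 0.05, and 6 were lower at day 6, beside 26.9% of all genes. In the fit with a replicate block, 1 was higher on each of the 2 days, beside 2236 and 4017 of all genes. AZU1, LTF, LCN2 and MMP9, which encode proteins of neutrophil granules, fell by 0.44, 0.41, 0.40 and 0.38, all from dim levels. LTF alone of these lost its call, at an adjusted p of 0.050 without DMSO replicate 3. Over all 17 genes of the list, the array means at day 6 were 4.21 to 4.24 in EZH2i arrays and 4.37 to 4.50 in DMSO arrays. Small lower values at day 6 were also found for 17 of the 82 olfactory receptor genes, with none higher. What the loss of signal among dim probe sets contributes to these lower calls was not tested. What dimness contributes to the few higher calls in dim lists was not tested either, and the shares over all genes are not matched for brightness. The median over all 19775 genes was -0.04 at day 3 and -0.11 at day 6, and the medians of the 3 myeloid lists were -0.13, -0.10 and -0.02 at day 3 and -0.18, -0.16 and -0.25 at day 6, in the order given.

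Lysosomes and phagosomes are compartments in which the LYZ and MPEG1 proteins act. Of 19 measured lysosomal and phagosomal genes, 4 were called higher at day 2, 6 at day 3 and 12 at day 6, with 1 lower at day 6. The shares of all genes called higher on those days were 3.57%, 8.64% and 18.5%. With a replicate block, 8 were higher and 1 lower at day 3. Over all genes that fit called 2236 higher and 2359 lower there, against 1709 and 1512 without the block. CTSB, a cysteine protease, rose by 1.33 ± 0.14 at day 3 and 2.19 ± 0.14 at day 6 (limma, adjusted p = 8.6e-07 and 4.3e-11). NPC2, which carries cholesterol out of the lysosome, rose by 0.98 ± 0.14 and 2.09 ± 0.14, and PSAP, the precursor of sphingolipid activator proteins, by 0.84 ± 0.09 and 1.87 ± 0.09. LIPA, the lysosomal acid lipase, rose by 1.01 ± 0.12 and 1.51 ± 0.12. The median of the list was 0.11 at day 3 and 0.37 at day 6. Its array means at day 6 were 8.82 to 8.88 in EZH2i arrays and 8.11 to 8.24 in DMSO arrays. This list is brighter than the monocyte and granule lists, and shares among genes of like brightness were not counted.

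Serglycin carries glycosaminoglycan chains that bind its cargo. Of 12 measured genes for proteins stored with serglycin, none was called at day 3 by limma, and 1 was higher and 4 lower at day 6, with medians of -0.07 and -0.22. Over all genes, 18.5% were higher and 26.9% lower at day 6. PRF1, the perforin of cytotoxic cells, rose by 0.52 ± 0.11 at day 6 (adjusted p = 0.00060), a call lost with the mean of its probe sets (0.078). CMA1, a mast cell protease, and GZMB, a granzyme, fell by 0.39 and 0.37 from dim levels. CMA1 was called lower at day 3 as well with a replicate block (-0.31, adjusted p = 0.038). Of 17 measured genes that build glycosaminoglycan chains such as those on serglycin, 2 were higher at day 3, and 8 higher and 1 lower at day 6, with medians of 0.08 and 0.21. With a replicate block, 4 were higher at day 3, XYLT1 among them (0.41, adjusted p = 0.0024), and 2 were lower at day 6. Over all genes that fit called 2236 higher at day 3 and 5919 lower at day 6. EXT1, a heparan sulfate polymerase, rose by 0.94 ± 0.14 at day 3 and 2.19 ± 0.14 at day 6 (limma, adjusted p = 3.6e-05 and 2.7e-11). CHST12, a chondroitin sulfotransferase, rose by 0.54 ± 0.11 and 0.78 ± 0.11.

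Relatives of MS4A7, MPEG1 and LYZ form short lists, and their counts are to be read beside the shares of all genes called. Those shares were 8.64% higher and 7.65% lower at day 3, and 18.5% higher and 26.9% lower at day 6. Of 12 measured MS4A and TMEM176 genes, 2 were higher at day 3, and 3 higher and 3 lower at day 6, with medians of -0.01 and -0.13. MS4A12, known from colon epithelium, rose by 2.06 ± 0.32 at day 3 and 2.53 ± 0.32 at day 6 (limma, adjusted p = 7.3e-05 and 8.9e-07). MS4A15 fell by 0.43 at day 6, and 1 gene of the list was called lower without DMSO replicate 2 or EZH2i replicate 1. At day 3, 1 was called higher without DMSO replicate 1, DMSO replicate 2 or EZH2i replicate 3. MS4A1, the CD20 gene, averaged 13.08 in EZH2i arrays and 12.70 in DMSO arrays at day 6, a rise of 0.37 ± 0.11 (adjusted p = 0.0069, but 0.059 without EZH2i replicate 1). Of 11 measured genes that share the pore-forming fold of perforin-2, 1 was higher at day 3 and 3 higher and 1 lower at day 6, with medians of -0.05 and -0.08, and PRF1 is one of the 3. Without DMSO replicate 2, EZH2i replicate 1 or EZH2i replicate 3 of day 6, 1 gene of this list was called higher. Of 7 measured relatives of lysozyme, none was called at day 3 by limma and 1, LYZL1, was lower at day 6 by 0.34 ± 0.08, with medians of -0.03 and -0.15. With a replicate block, 1 was also higher at day 6, beside 4017 of all genes.

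Markers of the line's own lineage and of other lymphocytes were measured beside these. Of 15 B lineage markers, 2 were lower at day 3, and 7 higher and 1 lower at day 6, with medians of 0.12 and 0.30. Of all genes, 7.65% were lower at day 3, and 18.5% higher and 26.9% lower at day 6. With a replicate block, 2 B lineage markers were higher at day 3, BANK1 among them (0.22, adjusted p = 0.0093), beside 2236 of all genes. CD72, a coreceptor on B cells, rose at day 6 by 2.56 ± 0.24, CD79B of the B cell receptor by 1.10 ± 0.11, the adaptor BANK1 by 1.05 ± 0.08 and the adaptor BLNK by 0.80 ± 0.15 (limma, adjusted p at most 0.00018). Of 15 T and NK cell markers, 1 was lower at day 3, and 1 higher and 3 lower at day 6, with medians of -0.07 and -0.16. CD3D, CD8B and CD7 fell by 0.58, 0.42 and 0.38.

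**Figure D3:**
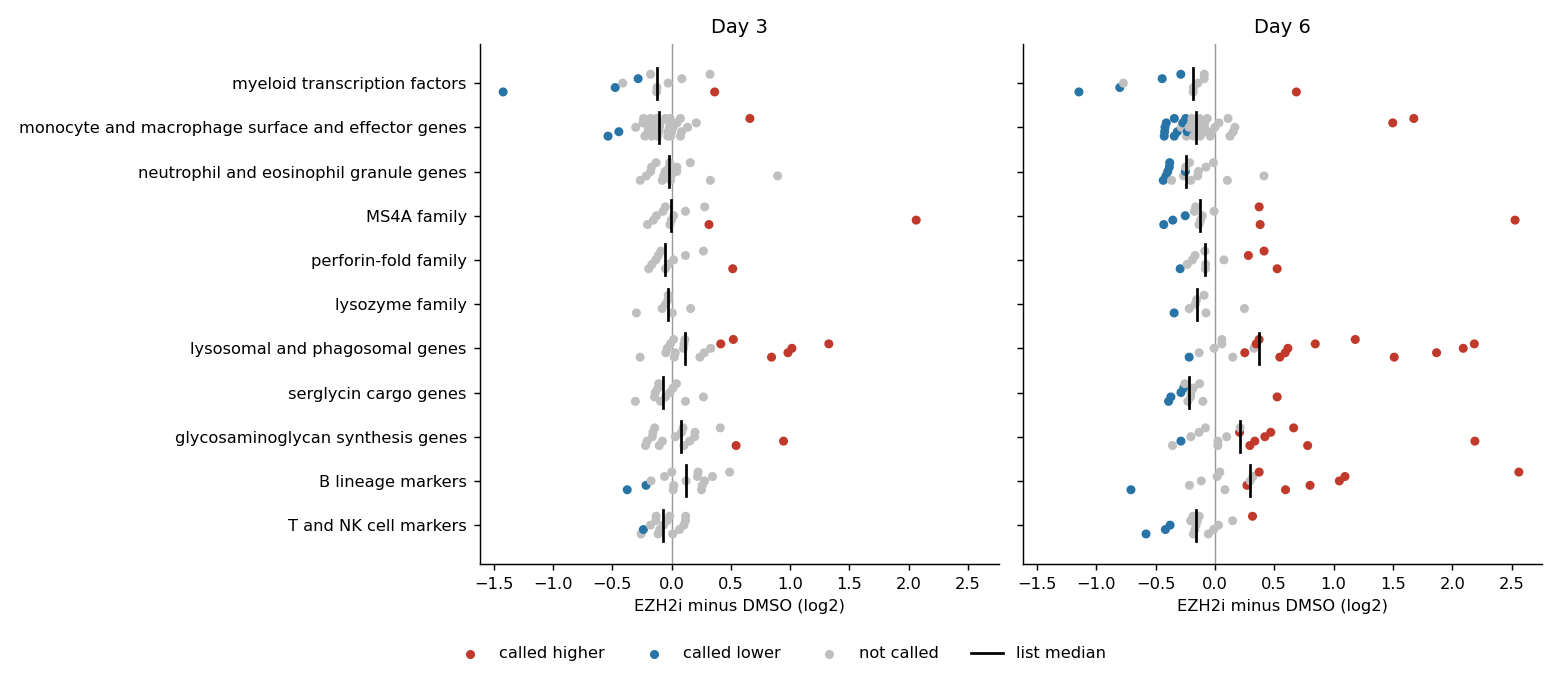
Difference between EZH2i and DMSO arrays (log2, horizontal axis) of each measured gene of the 11 lists (rows) at days 3 and 6, with genes called higher in red, called lower in blue, others in grey and list medians as black lines. At day 6 the red points are most numerous among lysosomal and phagosomal genes, 12 of 19, and the monocyte and macrophage list has 2 red and 10 blue points.

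Polycomb marks can cover runs of neighbouring genes, so the 5 nearest measured genes on each side of the 4 were compared. Of these 40 neighbours, 6 were called higher and 5 lower at day 3, and 8 higher and 15 lower at day 6. The higher counts are to be read beside 8.64% and 18.5% of all genes, and the lower counts beside 7.65% and 26.9%. Without EZH2i replicate 2 or replicate 3, 3 neighbours were called lower at day 3. Around MPEG1 on chromosome 11, 4 of 10 neighbours were higher on both days and 3 were lower at day 6. STX3, a syntaxin of vesicle fusion, rose by 1.36 ± 0.15 at day 3 and 1.69 ± 0.15 at day 6 (limma, adjusted p = 1.4e-06 and 5.6e-09). DTX4, a ubiquitin ligase next to MPEG1, differed by 0.74 ± 0.25 at day 3 and rose by 2.38 ± 0.25 at day 6 (adjusted p = 0.047 and 6.1e-08). Its day 3 call was lost without any of 4 arrays, DMSO replicates 1 and 2 and EZH2i replicates 2 and 3 (adjusted p = 0.073 to 0.23). FAM111A-DT rose by 0.66 ± 0.12 at day 3 and 1.41 ± 0.12 at day 6, and FAM111A by 0.47 ± 0.10 and 0.44 ± 0.10. The lower ones at day 6 were MRPL16 (-0.50 ± 0.07), GLYATL1-AS1 (-0.28 ± 0.09) and FAM111B (-1.15 ± 0.41). The FAM111B call (adjusted p = 0.025) was lost without DMSO replicate 1, EZH2i replicate 2 or EZH2i replicate 3 (0.10, 0.054 and 0.060).

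MS4A7 lies in the MS4A cluster, also on chromosome 11, where MS4A12, MS4A14 and MS4A1 were the higher neighbours at day 6 and MS4A6A the lower one (-0.36 ± 0.12). MS4A14 rose by 0.38 ± 0.09 at day 6. No neighbour of LYZ on chromosome 12 was higher on either day. Of its 10 neighbours 5 were lower at day 6, YEATS4 next to it by 0.95 ± 0.12, NUP107 by 0.94 ± 0.14 and CCT2 by 0.77 ± 0.07. CCT2 was called lower at day 3 as well with a replicate block (-0.18, adjusted p = 0.027). CPSF6, on its other side, fell by 0.46 ± 0.09, a call lost with the mean of its probe sets (adjusted p = 0.53), and MDM2 by 0.31 ± 0.09. Around SRGN on chromosome 10, VPS26A was the single higher neighbour at day 6 (0.33 ± 0.11, limma adjusted p = 0.023), a call lost without DMSO replicate 2, DMSO replicate 3 or EZH2i replicate 1 (0.068, 0.093 and 0.13). DDX21, SUPV3L1 and HK1 fell on both days, at day 6 by 0.80 ± 0.08, 0.71 ± 0.11 and 0.51 ± 0.06, and 6 of the 10 neighbours were lower at day 6.

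**Figure D4:**
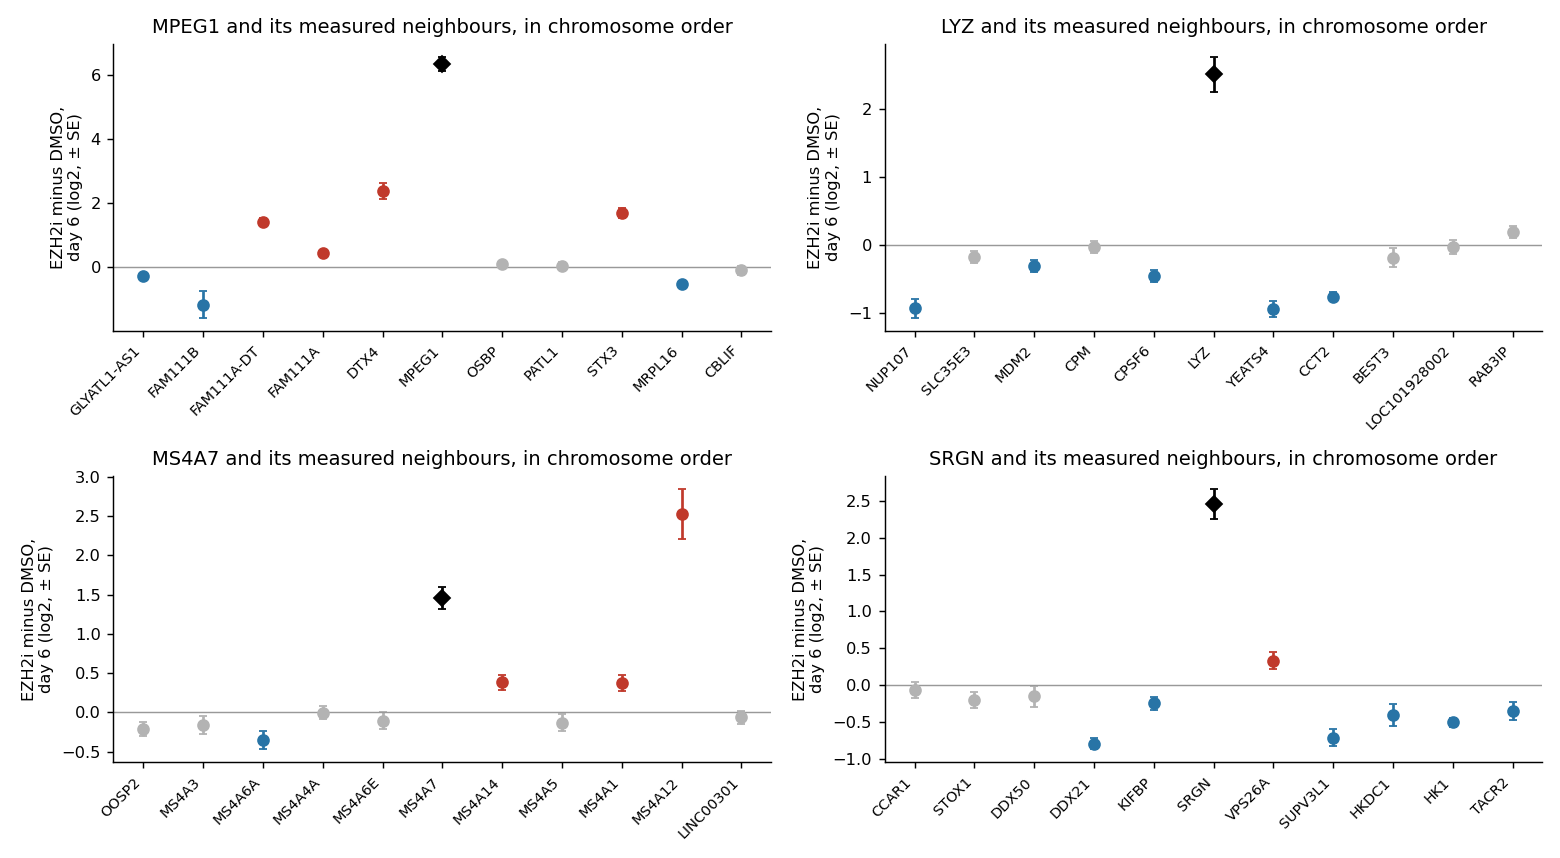
Difference between EZH2i and DMSO arrays at day 6 (log2, with SE, vertical axis) for MPEG1, LYZ, MS4A7 and SRGN (black diamonds) and the 5 measured genes on each side in chromosome order (horizontal axis), in red where called higher, blue where called lower and grey otherwise. STX3 and DTX4 near MPEG1 stand at 1.69 and 2.38, MS4A12 near MS4A7 at 2.53, and no red point stands beside LYZ.

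The genes whose pattern was most like each of the 4 were found by the root mean square distance over the 8 group means, each gene centred on its mean in DMSO arrays. Nearest to MPEG1 were H2AC6, CXCR4, AIM2, TMEM100 and RIN2, at distances of 0.37 to 0.42 on the log2 scale. Their day 6 differences were 5.95, 5.30, 5.73, 5.35 and 5.50, beside the 6.34 of MPEG1. The 8 group means include those of day 6, on which the 4 genes were chosen. All distances given here therefore rest partly on the values of that choice. Nearest to LYZ were PPM1K, PARP14, OAS3, RBM43 and IFI16 at 0.16 to 0.18, with day 6 differences of 2.32, 2.41, 2.15, 2.64 and 2.44. Nearest to SRGN were SLC25A43, ARHGAP18, NREP, MEIS1 and IFIT5 at 0.15 to 0.25, and their day 1 differences were 1.44, 0.90, 0.94, 0.82 and 0.57. Nearest to MS4A7 were RHBDF2, PLXNC1, DUSP6, SELENOM and SRGAP2 at 0.11 to 0.15. None of the 4 genes is among the 5 nearest of another, and the distances between them were 0.51 for LYZ and SRGN up to 1.83 for MPEG1 and MS4A7.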

How the data were processed

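The deposited log2 values are 1 per probe set and array, and RMA, which normalizes arrays by quantiles, made them, with R 2.10.1 also named, per the submitters' processing notes. The log base is not given in the sources used here and was read from the range of the values, 1.72 to 14.3. RMA gives no detection calls, so a dim gene's difference may be too small, and the number of arrays limits the precision. The platform's gene table names 41091 of 54613 probe sets with 1 symbol, 1801 with several, left out here, and 11721 with none. Each of 19775 genes was represented by its brightest probe set across the 24 arrays.

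Differences were tested with limma 3.58.1 in R 4.3.3 (lmFit with 1 coefficient for each of 8 groups, eBayes, 16 residual and 5.22 prior degrees of freedom). The groups shared an estimate of the spread, which 3 arrays against 3 alone would estimate poorly. The smallest p of an exact test with 3 arrays a group is 0.1. The 2-sided p-values of each contrast were given the Benjamini-Hochberg adjustment over all 19775 genes. Samples were grouped by their titles, and the labels call the triplicates biological without naming separate cultures, so the p-values measure the spread between these samples. Same-numbered arrays deviated together from their group means (median correlation 0.24, against -0.13 for other pairs, and 23 of 24 arrays lay closest to their own number). The correlation was over 0.1 for every pair at days 1, 3 and 6, so that the numbers pair the arrays there, and 0.043 for 1 pair at day 2. The fit planned without the block was kept, and blocked values are given for many of the calls and counts they change. Only a called gene is said to have risen or fallen.

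The 4 genes and the 11 lists were chosen with earlier results of these data known. The text names the 4 genes and their probe sets, defining markers and the 5 genes nearest in pattern. Up to 4 called genes of each list with the largest difference at each of days 3 and 6, and all called neighbours, were also examined. Only part of these is named. Gene order and the promoter come from RefSeq tables (GRCh38.p14). List members that matched no single-symbol probe set were not analysed here. The alternatives were a replicate block, a fit limited to the groups compared, averaging over probe sets, a second quantile normalization, subtraction of array medians, array weights, a trended robust eBayes, a filter of the dimmest 40% of genes, and leaving out each array. The script was tested on simulated data.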

Additional observations from a re-analysis of the deposited data

Results flagged for a closer look

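The difference between EZH2i and DMSO arrays changed between day 1 and day 3 for 3 of the 4 genes, by a test of that change itself (interaction term in limma, adjusted over 19775 genes). It grew by 2.25 for MPEG1 (adjusted p = 0.00056), by 1.86 for LYZ (adjusted p = 0.0072) and by 1.34 for SRGN (adjusted p = 0.016). Among all genes, 1.6% were called for such growth. Each EZH2i array of day 3 was above each EZH2i array of day 1 for all 4 genes, MS4A7 included. That comparison leaves out the DMSO arrays, and how often it holds over all genes was not counted. For MS4A7 the growth of 0.29 was not called.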

How the results depend on the processing

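The calls of MPEG1 at days 2 and 3, LYZ at day 3, MS4A7 at day 3 and SRGN at days 2 and 3 held under each alternative run, as did the growth from day 1 to day 3 for MPEG1 and LYZ. LYZ lies among the dimmest 40% of genes and has no value under that filter. The LYZ day 2 difference was called with array weights (0.84, limma adjusted p = 0.035), and ranged from 0.55 to 1.13 with 1 array left out. The MS4A7 day 2 difference was called with the replicate block (0.47, adjusted p = 0.023), the mean of probe sets (0.47), subtraction of array medians (0.49), array weights (0.53) and without the dimmest genes (0.47), and ranged from 0.33 to 0.59 with 1 array left out. The SRGN day 1 call was lost in the fit limited to that day (1.08, adjusted p = 0.051) and with the mean of probe sets (0.56, adjusted p = 0.12), which includes its dim probe set, and ranged from 0.91 to 1.22 with 1 array left out. The growth of the SRGN difference ranged from 1.15 to 1.51. The cause was not tested except where named. With the mean of probe sets the day 6 differences were 5.90 for MPEG1, 1.75 for LYZ, 1.96 for MS4A7 and 1.71 for SRGN.

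Of all genes, 94 were called higher at day 1, against 243 with the replicate block, 46 in the limited fit, 52 with the mean of probe sets, 155 with array weights and 32 to 87 with 1 array left out (32 without EZH2i replicate 2). At day 2, 706 were higher, against 1126 with the block. At day 3, 1512 were lower, against 2359 with the block, 872 in the limited fit and 961 to 1413 with 1 array left out (961 without EZH2i replicate 2). The count of monocyte and macrophage genes called lower at day 6 was 10, against 2 without the dimmest genes and 13 with the mean of probe sets. That filter, which tests fewer genes, also gave 1 granule gene lower at day 6 in place of 6, 0 MS4A genes in place of 3 and 1 serglycin cargo gene in place of 4, and 0 MS4A genes higher at day 3 in place of 2. Genes that the filter removes have no value under it, MS4A12 and MS4A14 among them, so such counts can fall without a call being lost. The MS4A12 calls at days 3 and 6 held in every fit with a value for that gene. In the fit limited to day 3, 0 myeloid transcription factors were lower in place of 3, and 2 neighbours in place of 5. The day 3 lower calls of 2 monocyte and macrophage genes, 2 B lineage markers and 1 T cell marker each ended with some array left out. Of 92 calls of the examined list genes, markers and neighbours, some of them not named in the text, 54 were ended by no alternative and by no left-out array. Apart from MS4A7 at day 2 and SRGN within DMSO (0.69, adjusted p = 0.015), the replicate block changed no call of the 4 genes. Some of the list counts it changed are given with the lists. At day 6 it also gave 9 B lineage markers higher in place of 7, and 7 granule genes lower in place of 6. Of the neighbours, 9 were higher and 16 lower at day 6, in place of 8 and 15. Of all genes, 2236 were then higher at day 3 in place of 1709. At day 6, 4017 were higher and 5919 lower, in place of 3653 and 5324.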
